A study of Mus musculus with 4 samples.

Results

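The genes described here encode the voltage-gated sodium channels, the voltage-gated calcium channels and the hyperpolarization-activated HCN channels, and they were measured in mouse hippocampus. Members were all protein-coding mouse genes whose symbols begin with Scn and a number followed by a or b, or with Cacna, Cacnb or Cacng. The HCN genes were also included. The rule reads symbols and no measured value, but it was set with earlier results of these data known. In all, 44 genes matched the rule. Of these, 41 were measured among the 16148 genes in the tables, summed from 100 transcripts, and Scn10a, Scn11a and Cacna1f were not analysed here. The 41 comprised 8 sodium channel pore genes, 4 sodium channel beta genes, 9 calcium channel pore genes, 4 alpha2delta genes, 4 calcium channel beta genes, 8 gamma genes and 4 HCN genes. A filter of at least 1 unit in at least 2 libraries left 39 for testing, and Scn4a and Cacng1 fell below it.

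Total RNA came from the hippocampus of mice kept for 18 weeks on a western diet, either wild type for Tas1r3 (WT-WD) or knocked out for it (KO-WD). Tas1r3 encodes a subunit shared by the sweet and umami taste receptors, and the title of the study places the comparison in cognitive impairment of obese mice. There were 2 libraries per genotype and both groups received the western diet, so no effect of diet can be read from them. The knockout allele, the strain, the age and sex of the mice and any pooling of animals are not given in the labels, and no label says whether the libraries of a genotype are from different animals. The p-values therefore measure only how far these libraries spread, which may be technical. Values are the authors' normalized signal in units, scaled to about the same total in every library, and differences are KO-WD minus WT-WD on the scale of log2(signal + 1), tested with limma.

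Tas1r3 itself was at 16.1 and 15.9 units in WT-WD and 0.887 and 1.85 units in KO-WD, a log2 difference of -2.88 (SE 0.34) with a limma adjusted p of 0.0813, so both libraries labelled KO-WD were far below both labelled WT-WD although the difference missed the threshold of 0.05. The estimated depth was 11581256 to 15944825 reads per library, and a floor of 3 reads was 0.563 to 0.776 units, covering counting error only. Across all genes, 10 of 15707 passed the threshold, which is 0.0637%. All 12 markers of hippocampal pyramidal and granule neurons were measured, with a summed signal of 12426 to 14626 units per library, against 194 to 252 units for 8 thalamus and habenula markers and 537 to 650.0 units for 8 striatum markers. Most of the first sum was Camk2a, at 8296 and 7634 units in WT-WD and 7947 and 9405 units in KO-WD. Sums over lists of different genes do not compare amounts of tissue. Other cell types differed between the libraries of the genotypes: all 10 choroid plexus markers were higher in KO-WD, with a median log2 difference of 1.11 and sums of 3664 and 1478 units in WT-WD and 7306 and 3715 units in KO-WD, and all 10 oligodendrocyte markers were lower, with a median of -0.43, while no gene of either list passed the test. Most of the choroid plexus sums was Ttr, at 3212 and 1223 units in WT-WD and 6440 and 3078 units in KO-WD, which overlapped between the genotypes. The part of these cell types in the values below was not tested, and in bulk tissue fewer cells of a type and less RNA per cell cannot be told apart.

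Voltage-gated sodium channels open on depolarization and carry the rising phase of the action potential. Their pore is formed by a single long protein with repeated homologous domains, and beta subunits, short membrane proteins with an immunoglobulin fold, alter gating and bind to cell adhesion partners. Voltage-gated calcium channels couple depolarization to transmitter release, gene expression and burst firing. Their pore genes fall into the L type, the P/Q, N and R types, which open at strong depolarization, and the T type, which opens near rest. The alpha2delta and beta subunits bring high-voltage-activated pores to the membrane. The gamma family includes the TARPs, which act mainly as auxiliary proteins of AMPA-type glutamate receptors. HCN channels open on hyperpolarization and carry a mixed cation current, and in hippocampal pyramidal cells they are concentrated in distal dendrites.

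The sequences shown first belong to Cacnb4, the calcium channel beta gene with the smallest unadjusted p among the members. They were read from the mouse genome build GRCm38 with its GENCODE annotation, whereas the authors worked on build mm39, so these coordinates are not theirs. The transcripts of Cacnb4 begin their coding sequence at alternative first exons on chromosome 2 (minus strand, GRCm38), and the stretches private to each start are given with the start codon in capitals, because the genotype difference described below was not spread evenly over them. The longest start consists of a segment of 60 bases followed by a segment of 84 bases, the second start has 45 bases and the third has 6 bases (ATGgct, chr2:52556202-52556207).
Cacnb4 long start, segment of 60 bases (chr2:52676271-52676330): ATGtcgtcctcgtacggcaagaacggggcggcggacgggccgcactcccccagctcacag
Cacnb4 long start, segment of 84 bases (chr2:52675728-52675811): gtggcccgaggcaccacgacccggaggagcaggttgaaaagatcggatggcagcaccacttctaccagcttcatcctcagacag
Cacnb4 middle start, segment of 45 bases (chr2:52558269-52558313): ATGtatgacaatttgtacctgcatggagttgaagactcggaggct

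The members together held 0.330% and 0.318% of the library signal in WT-WD and 0.314% and 0.349% in KO-WD. KO-WD replicate 2 was the highest of the 4 and KO-WD replicate 1 the lowest, so the genotypes overlapped. A pattern across libraries touches the pore genes, whose transcripts are long, and it is given before their values. In KO-WD replicate 2, the median deviation of a gene from its mean over the 4 libraries (log2) ran with transcript length, from -0.086 for genes under 2000 bases to 0.19 for genes of 10000 bases or more. In the other libraries it ran the other way, from 0.048 to -0.11 in KO-WD replicate 1. It ran from 0.013 to -0.064 in WT-WD replicate 1 and from 0.031 to -0.022 in WT-WD replicate 2. These deviations are taken from the mean of the same 4 libraries, so they do not vary independently of each other. KO-WD replicate 2 was the highest library for 13 of the 14 pore members averaging at least 10 units, which is 92.9%, and for 55.8% of the 1861 genes of at least 6000 bases. It was the highest for 30.0% of 11506 genes of any length and for 17.6% of the 17 auxiliary members at that level. The 14 pore members have longest transcripts of 7926 to 14921 bases, whereas 1069 of the 1861 genes lie under 8000 bases. The 55.8% therefore includes many genes with shorter transcripts than the pore members. The part of this length pattern in the pore differences was not tested beyond the values given here with the library left out and with the length trend removed.

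**Figure D1:**
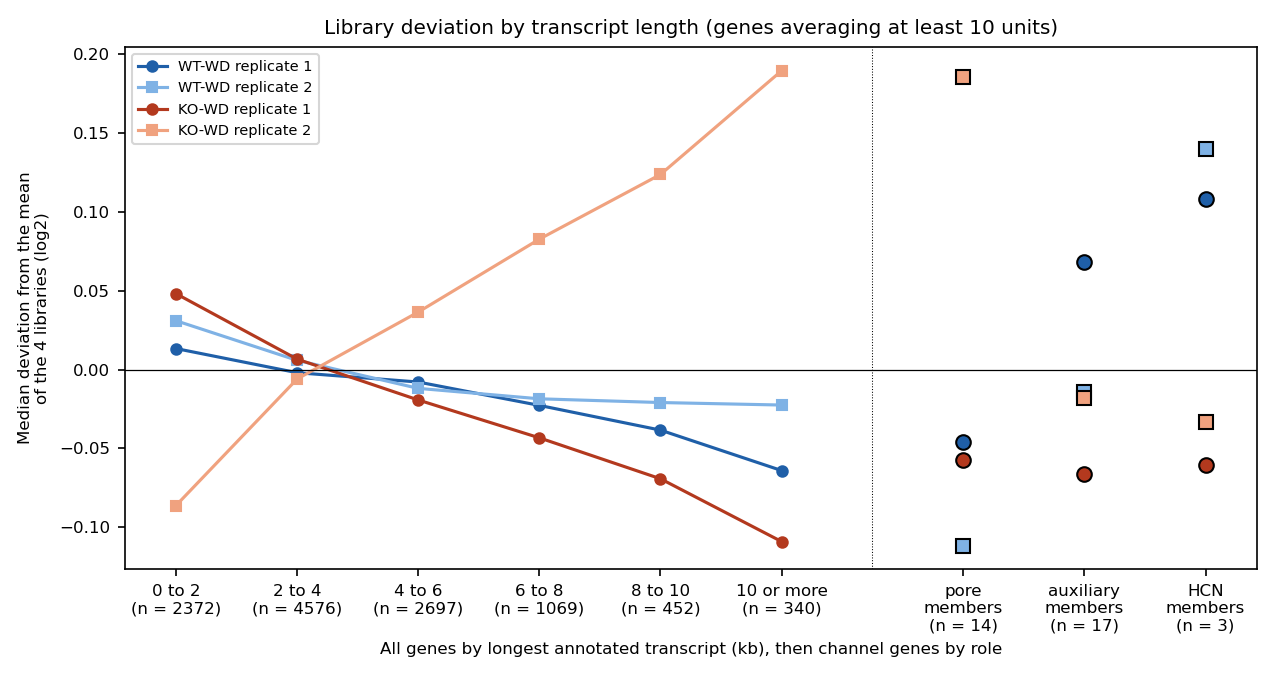
Median deviation of each library from the mean of the 4 libraries (log2), for all genes averaging at least 10 units in bins of longest annotated transcript (lines) and for the pore, auxiliary and HCN members (outlined points on the right), with n below each position. The line of KO-WD replicate 2 runs from -0.086 in the shortest bin to 0.19 in the longest, and its point for the 14 pore members lies at 0.19, above those of the other libraries.

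No member passed the adjusted threshold in KO-WD against WT-WD by limma, and adjusted p ran from 0.684 to 0.999 over the 39 tested, against 0.0637% of all genes called. At an unadjusted p under 0.05 there were 3 members, Cacnb4 lower and Cacng5 and Cacna1b higher, against 5.28% of all genes. The libraries of the genotypes did not overlap for 16 members, 41.0% of the 39, against 36.3% of all genes: both KO-WD libraries were above both WT-WD libraries for 9 (background 17.9%) and below for 7 (background 18.4%). In direction, 18 members were higher and 21 lower, with a median log2 difference of -0.014 against 0.00025 over all genes. By role, of 16 pore members, 12 were higher, with a median of 0.16, and of 19 auxiliary members 14 were lower, with a median of -0.072. The pore count rests on KO-WD replicate 2: without that library 7 of the 16 were higher and 9 lower, with a median of -0.0037, whereas 14 of 19 auxiliary members were lower, with a median of -0.11. With the length trend removed 12 of the 16 pore members were higher, with a median of 0.082. Over all members, with KO-WD replicate 2 left out, 13 members were higher and 26 lower, and with KO-WD replicate 1 left out the counts were 23 and 16, so the balance turned with the library left out. With the length trend removed from each library, an alternative chosen after seeing the data, 19 were higher and 20 lower.

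**Figure D2:**
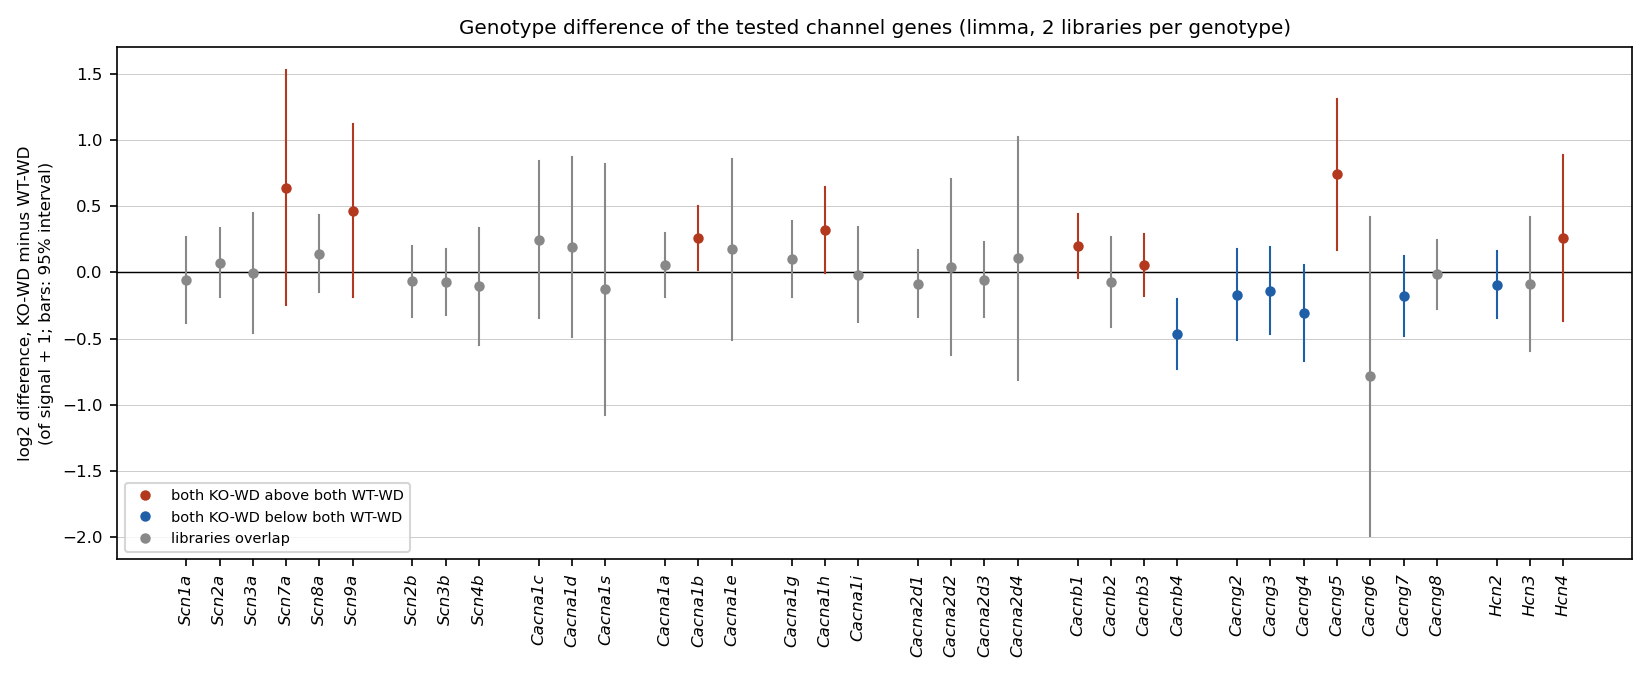
Log2 difference of signal + 1, KO-WD minus WT-WD, for tested channel genes by role, with limma 95% intervals as bars and 2 libraries per genotype. The intervals of Cacnb4, Cacng5 and Cacna1b lie off 0, and colours mark the genes with both KO-WD libraries above or both below the WT-WD libraries.

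Among sodium channel pore genes, Scn2a, a pore gene of excitatory neurons, and Scn8a, which encodes the pore concentrated at the axon initial segment and nodes, dominated the signal. Scn2a was at 789 and 738 units in WT-WD and 759 and 849 units in KO-WD, a log2 difference of 0.073 with a 95% interval of -0.19 to 0.33. Scn8a was at 733 and 719 units in WT-WD and 726 and 882 units in KO-WD, a difference of 0.14 (-0.15 to 0.43). KO-WD replicate 2 alone was above the other 3 libraries for both genes, and without it the Scn2a difference was -0.0074 and the Scn8a difference -5.9e-05.

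Scn1a, best known as the pore gene of fast-spiking inhibitory neurons, was at 197 and 208 units in WT-WD and 174 and 218 units in KO-WD (-0.057; -0.38 to 0.27). Scn3a, a gene of the embryonic brain that persists at a low level in adults, was at 103 and 117 units in WT-WD and 91.3 and 131 units in KO-WD (-0.0052; -0.46 to 0.45). For both genes KO-WD replicate 1 was the lowest library and KO-WD replicate 2 the highest, so the genotypes overlapped fully. Without KO-WD replicate 1 the differences of Scn1a and Scn3a were 0.11 and 0.25.

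Other sodium pore genes were low. Scn9a, the pore gene of peripheral pain-sensing neurons, was at 11.7 and 9.89 units in WT-WD and 12.7 and 18.3 units in KO-WD (0.46; -0.19 to 1.12). Scn7a, which encodes a channel that senses sodium concentration and is found in glia, was at 3.12 and 4.88 units in WT-WD and 8.64 and 5.09 units in KO-WD (0.64; -0.25 to 1.53). In both genes both KO-WD libraries were above both WT-WD libraries, with intervals that include 0, and the size rested on single libraries. The highest was KO-WD replicate 2 for Scn9a and KO-WD replicate 1 for Scn7a. Without KO-WD replicate 2 the Scn9a difference was 0.22, and without KO-WD replicate 1 it was 0.71. Leaving out each library in turn gave 0.31 to 0.97 for Scn7a, lowest without KO-WD replicate 1. Scn4a, the skeletal muscle gene, lay between 0.259 and 1.32 units and was at or under the floor of 3 reads in 2 libraries.

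Per 1000 bases of longest annotated transcript, the level of Scn2a was 87.7 ± 5.39 units (SD, n = 4 libraries) and that of Scn8a 66.9 ± 6.82. Scn1a followed at 23.7 ± 2.27 and Scn3a at 11.5 ± 1.78. Neighbours in this order did not overlap in range, whereas per 1000 bases of coding sequence Scn2a and Scn8a overlapped, at 130.2 ± 8.01 and 128 ± 13.1. Scn9a, at 1.33 ± 0.368 per 1000 bases of transcript, and Scn7a, at 0.741 ± 0.315, overlapped each other. As shares of the deposited sodium pore signal, Scn2a made up 42.7% and 40.9% in WT-WD and 42.5% and 40.2% in KO-WD, and Scn8a 39.7% and 39.8% in WT-WD and 40.6% and 41.7% in KO-WD.

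The transcript shares of Scn8a and Scn9a varied little over the 4 libraries. Transcript NM_011323 held 59.2% and 58.8% in WT-WD and 58.5% and 59.7% in KO-WD of the Scn8a signal, and NM_001290675 held 54.7% and 56.9% in WT-WD and 54.1% and 54.1% in KO-WD of the Scn9a signal. The genotypes overlapped for Scn8a, and for Scn9a both KO-WD libraries were below both WT-WD libraries. How the authors divided reads among transcripts is not given in the sources used here.

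Sodium channel beta genes held more of the deposited signal than the pore genes. Scn3b was at 791 and 810.0 units in WT-WD and 725 and 798 units in KO-WD (-0.074; -0.32 to 0.17), and Scn2b at 764 and 659.8 units in WT-WD and 675 and 680.3 units in KO-WD (-0.068; -0.33 to 0.20). Scn4b, whose product is known for promoting resurgent sodium current, was at 108 and 79.2 units in WT-WD and 78.8 and 93.8 units in KO-WD (-0.11; -0.55 to 0.33). These 3 were lower in KO-WD on average, but the libraries of the genotypes overlapped in each, and without WT-WD replicate 1 the Scn4b difference was 0.12. Scn4b was the lowest of these per 1000 bases of transcript, at 18.1 ± 2.8 units against 149 ± 10.1 for Scn2b and 188 ± 9.23 for Scn3b. Scn3b and Scn2b did not overlap per 1000 bases of transcript and overlapped per coding length.

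Within Scn3b, a single transcript, NM_178227, had the smallest unadjusted p of the 97 member transcripts tested. It was at 143 and 131 units in WT-WD and 225 and 202 units in KO-WD, a log2 difference of 0.63 (SE 0.14) with a limma adjusted p of 0.816. Transcript NM_001083917 of the same gene was at 425 and 427 units in WT-WD and 329 and 367 units in KO-WD. The former was higher and the latter lower in both KO-WD libraries, while the sum over the gene overlapped. Of all 29293 transcripts tested, 0, or 0%, passed the adjusted threshold, and 1668, or 5.69%, had an unadjusted p under 0.05. Among member transcripts 4 did: this one, NM_001174047 of Cacna2d2, NM_001282977 of Cacnb1 and NM_001285426 of Cacnb4.

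The auxiliary share of sodium channel signal, the beta genes over the sum of beta and pore genes, was 55.6% and 55.7% in WT-WD and 55% and 50.9% in KO-WD. Both WT-WD libraries and KO-WD replicate 1 lay within 0.701 points of each other and KO-WD replicate 2 stood below them. The difference of -2.7 percentage points had an exact two-sided permutation p of 0.333, the smallest that 6 splits of 2 against 2 can give, and without KO-WD replicate 2 it was -0.629 points. Since the pore transcripts are longer than the beta transcripts, the share depends on length: per 1000 bases of coding sequence it was 92% and 92.1% in WT-WD and 91.8% and 90.5% in KO-WD, and per 1000 bases of longest transcript 80.6% and 81.4% in WT-WD and 81.1% and 77.7% in KO-WD.

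**Figure D3:**
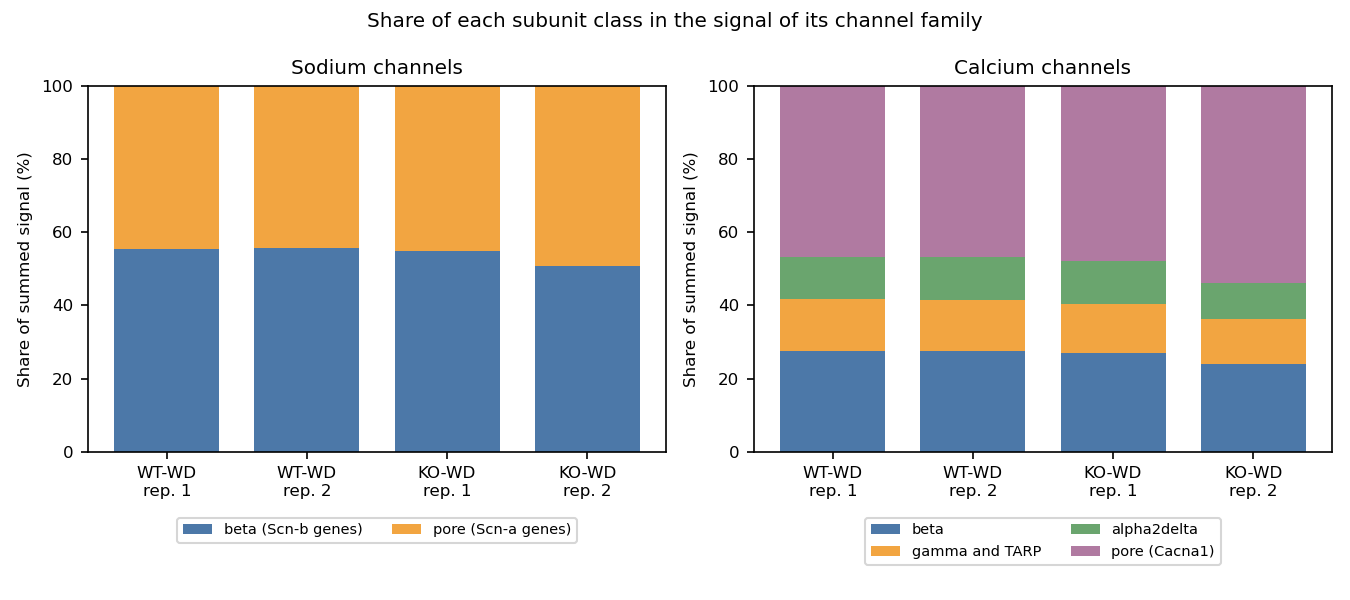
Share of summed deposited signal (%) in each library, for beta and pore genes of the sodium channels (left) and beta, gamma, alpha2delta and pore genes of the calcium channels (right). The auxiliary segments are smallest in KO-WD replicate 2, at 50.9% for sodium and 46.2% for calcium channels, against 55.0% to 55.7% and 52.2% to 53.3% in the other 3 libraries.

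Calcium channel pore genes of the L type were led by Cacna1c, the main L-type pore gene of brain and heart, at 326 and 337 units in WT-WD and 311 and 496 units in KO-WD (0.25; -0.34 to 0.84). Cacna1d, an L-type gene that opens at lower voltage, was at 151 and 139 units in WT-WD and 127 and 215 units in KO-WD (0.19; -0.49 to 0.87). In both genes KO-WD replicate 2 stood well above the other 3 libraries and KO-WD replicate 1 was the lowest. Without KO-WD replicate 2 the differences turned to -0.089 and -0.19, and with the length trend removed they were 0.17 and 0.14. Cacna1s, the skeletal muscle gene, lay between 1.10 and 1.81 units.

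Of the genes that supply presynaptic channels, Cacna1b, the N-type pore gene, was at 329.8 and 345 units in WT-WD and 394 and 413 units in KO-WD. Both KO-WD libraries were above both WT-WD libraries, and the 2 libraries of each genotype lay close together. The log2 difference was 0.26 (SE 0.10; 0.015 to 0.50), 1.2-fold, with an unadjusted p of 0.0403 and a limma adjusted p of 0.902. It was 0.22 without KO-WD replicate 2 and 0.20 with the length trend removed. Cacna1a, the P/Q-type pore gene, was at 403 and 376 units in WT-WD and 402 and 406 units in KO-WD (0.053; -0.19 to 0.30), with the smallest coefficient of variation over the 4 libraries among pore members averaging at least 10 units. Cacna1e, the R-type gene, was at 351 and 327 units in WT-WD and 297 and 493 units in KO-WD (0.17; -0.51 to 0.86). There KO-WD replicate 2 was again far above the rest, and without it the difference was -0.19.

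The T-type genes, whose channels support burst firing near rest, were all measured. Cacna1h was at 385 and 370.2 units in WT-WD and 417 and 533 units in KO-WD, with both KO-WD libraries above both WT-WD libraries. The log2 difference was 0.32 (SE 0.14; -0.0026 to 0.64), with an unadjusted p of 0.0515 and a limma adjusted p of 0.902, and it was 0.14 without KO-WD replicate 2 and 0.28 with the length trend removed. Cacna1g was at 207 and 180.2 units in WT-WD and 201 and 213 units in KO-WD (0.099; -0.19 to 0.38), and Cacna1i at 293 and 244 units in WT-WD and 235 and 296 units in KO-WD (-0.016; -0.37 to 0.34). Both genes overlapped between genotypes, and the Cacna1i difference was 0.15 without KO-WD replicate 1.

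Per 1000 bases of longest transcript, Cacna1h at 51.8 ± 8.95 and Cacna1a at 50.1 ± 1.75 were the highest calcium pore genes and overlapped in range. Cacna1b followed at 38.1 ± 4.04 and overlapped Cacna1c, the next gene, in range. Cacna1c, Cacna1i, Cacna1e, Cacna1g and Cacna1d lay between 27.9 ± 6.56 and 18.2 ± 4.53, each overlapping its neighbour. The lowest was Cacna1s at 0.221 ± 0.0517. This order depended on the length used. Per 1000 bases of coding sequence Cacna1h was at 60.3 ± 10.4, Cacna1a at 55.9 ± 1.95 and Cacna1c at 55.1 ± 13.0. Cacna1e followed at 53.8 ± 12.7 and Cacna1b at 53.1 ± 5.63, with overlap between neighbours among these genes. The L-type share of calcium pore signal was 19.6% and 20.5% in WT-WD and 18.4% and 23.2% in KO-WD. The P/Q, N and R types together made up 44.3% and 45.2% in WT-WD and 45.8% and 42.8% in KO-WD, and the T type 36.2% and 34.2% in WT-WD and 35.8% and 34% in KO-WD. All 3 shares overlapped between the genotypes.

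**Figure D4:**
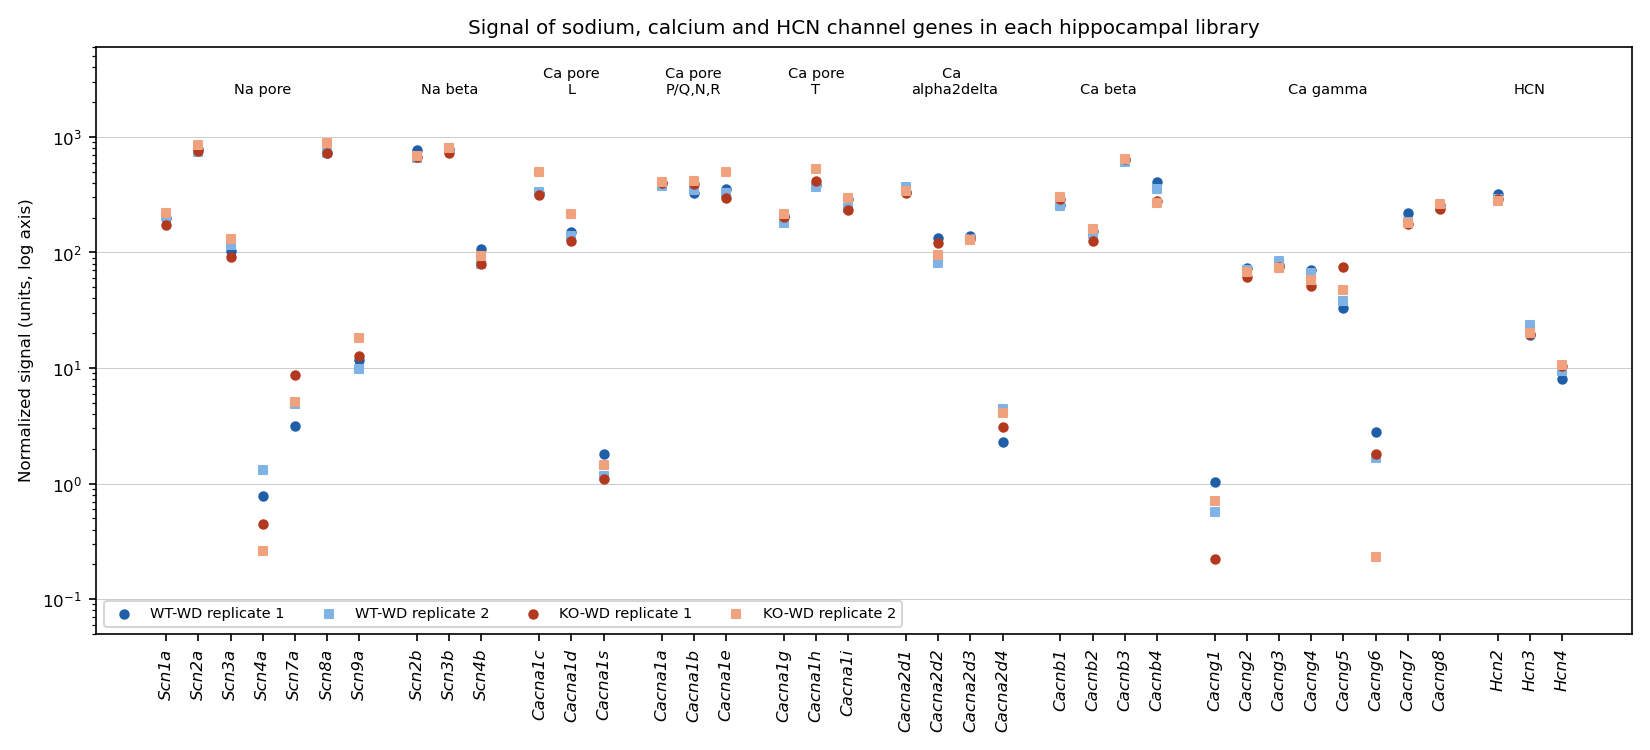
Normalized signal (units, log axis) of channel genes in each of the 4 libraries, grouped by role. Scn2a, Scn8a, Scn2b, Scn3b and Cacnb3 lie highest, at 609 to 882 units, the libraries of most members lie close together, and Scn4a, Cacna1s, Cacng1 and Cacng6 lie lowest.

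Among alpha2delta genes, Cacna2d1, the binding site of the gabapentinoid drugs, was at 336 and 368 units in WT-WD and 327 and 338 units in KO-WD (-0.084; -0.34 to 0.17). Cacna2d3 was at 138 and 129.9 units in WT-WD and 131 and 127 units in KO-WD (-0.054; -0.34 to 0.23), with all 4 libraries within 10.6 units. Cacna2d2 was at 133 and 81.2 units in WT-WD and 120.3 and 95.2 units in KO-WD (0.04; -0.62 to 0.70), with 1 high and 1 low library in each genotype, and without WT-WD replicate 2 its difference was -0.31. Cacna2d4, a retinal gene, lay between 2.31 and 4.4 units. No alpha2delta gene separated the genotypes. Per 1000 bases of longest transcript the order was Cacna2d1 at 46 ± 2.44, Cacna2d3 at 35.5 ± 1.22, Cacna2d2 at 18.5 ± 4.07 and Cacna2d4 at 0.596 ± 0.165, with no overlap between neighbours. The 2 transcripts of Cacna2d4 divided its signal at 34.6% and 65.4% in every library, within 0.0001 points.

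Cacna2d1 is spliced in its coding sequence, and its 5 transcripts hold different combinations of short segments. A segment of 72 bases on chromosome 5 (chr5:16326312-16326383, plus strand, GRCm38) is shortened to its last 57 bases in other transcripts by use of an internal splice site. Capitals mark the 15 bases that the shorter form lacks.
Cacna2d1 alternative segment: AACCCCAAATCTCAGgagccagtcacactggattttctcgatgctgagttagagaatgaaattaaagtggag
Transcripts with the whole segment held 71.3% and 62.9% in WT-WD and 66.1% and 70.9% in KO-WD of the Cacna2d1 signal, and the libraries of the genotypes overlapped.

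Calcium channel beta genes held the largest share of calcium auxiliary signal. Cacnb3, the beta gene with the highest signal here, was at 632 and 609 units in WT-WD and 648 and 643 units in KO-WD (0.057; -0.18 to 0.29). Cacnb1 was at 260.2 and 255 units in WT-WD and 289 and 302 units in KO-WD (0.20; -0.045 to 0.44). In both genes the KO-WD libraries lay above the WT-WD libraries, and for Cacnb3 the whole range was 6.11% of its mean. Cacnb2, the main cardiac beta gene, was at 153 and 145 units in WT-WD and 127 and 159 units in KO-WD (-0.072; -0.41 to 0.27) and overlapped, with a difference of 0.091 without KO-WD replicate 1.

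Cacnb4, the beta gene disrupted in the epileptic and ataxic lethargic mouse, was at 404 and 357 units in WT-WD and 280.4 and 270.1 units in KO-WD. Both KO-WD libraries were below both WT-WD libraries, and they lay within 10.3 units of each other. The log2 difference was -0.46 (SE 0.11; -0.73 to -0.20), 1.38-fold lower, with an unadjusted p of 0.00417 and a limma adjusted p of 0.684. Leaving out each library in turn gave -0.55 to -0.37, and removing the length trend gave -0.51. As a share of the calcium beta signal, Cacnb4 made up 27.9% and 26.1% in WT-WD and 20.9% and 19.6% in KO-WD, a difference of -6.75 points (exact two-sided permutation p = 0.333, the smallest possible). The share of Cacnb1 was 17.9% and 18.7% in WT-WD and 21.5% and 22% in KO-WD, and that of Cacnb3 43.6% and 44.6% in WT-WD and 48.2% and 46.8% in KO-WD.

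The deposited transcripts place the lower Cacnb4 signal mainly in the long start. The 2 transcripts that begin with the segments of 60 and 84 bases printed above summed to 224 and 176 units in WT-WD and 113 and 77 units in KO-WD, and both KO-WD libraries were below both WT-WD libraries. The 2 transcripts with the start of 45 bases summed to 163 and 138 units in WT-WD and 119 and 173 units in KO-WD, which overlapped. Of these, NM_001285428 was lower in both KO-WD libraries, at 131 and 102 units in WT-WD and 84.7 and 85.8 units in KO-WD. NM_146123 was at 31.8 and 35.6 units in WT-WD and 34.3 and 86.8 units in KO-WD, so the sum overlapped through KO-WD replicate 2. The transcript with the start of 6 bases was at 10.4 and 26.7 units in WT-WD and 36.8 and 13.9 units in KO-WD, and a sixth transcript, not linked to the annotation, at 7.0 and 16.6 units in WT-WD and 11.3 and 6.53 units in KO-WD. As a share of Cacnb4 signal, the long start lay between 49.2% and 55.4% in WT-WD and between 28.5% and 40.4% in KO-WD. Transcript NM_001285426, of the long start, had a log2 difference of -0.90 (SE 0.32) with an unadjusted p of 0.0416 and a limma adjusted p of 0.863. The starts share most of their sequence, so these values rest on how the authors' method assigned reads among transcripts.

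**Figure D5:**
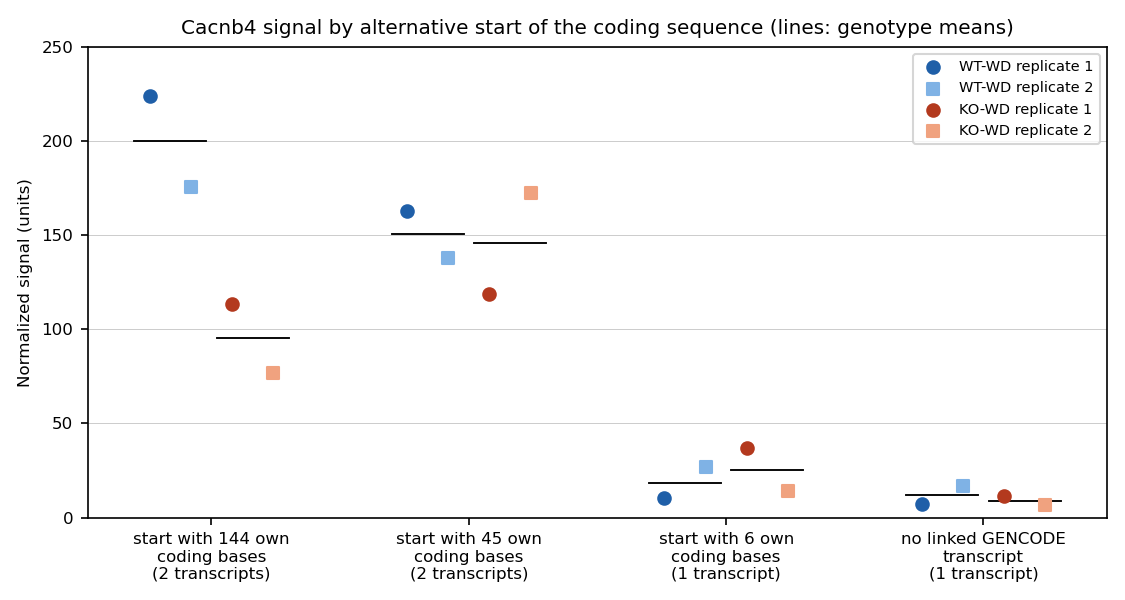
Normalized signal (units) of Cacnb4 transcripts summed by the start of their coding sequence, in each library, with horizontal lines at the mean of the 2 libraries of a genotype. For the long start the KO-WD libraries, at 113 and 77.0 units, lie below the WT-WD libraries at 224 and 176 units, and the other forms overlap between genotypes.

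The gamma family is led by 2 TARP genes. Cacng8, the TARP gene most typical of hippocampus, was at 256 and 247 units in WT-WD and 238 and 261 units in KO-WD (-0.014; -0.27 to 0.25), and Cacng7, a type II TARP gene, at 220.5 and 185 units in WT-WD and 176 and 181 units in KO-WD (-0.18; -0.48 to 0.12). The Cacng7 libraries did not overlap, but WT-WD replicate 1 accounts for most of the gap, since the other 3 lay between 176 and 185 units.

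The other type I TARP genes were lower in both KO-WD libraries. Cacng2, which encodes stargazin, was at 74.1 and 71 units in WT-WD and 61.4 and 67.7 units in KO-WD (-0.17; -0.51 to 0.18). Cacng3 was at 78.7 and 84.6 units in WT-WD and 74.9 and 73.1 units in KO-WD (-0.14; -0.47 to 0.19). Cacng4 was at 70.2 and 66 units in WT-WD and 51.6 and 58.3 units in KO-WD, with a log2 difference of -0.31 (SE 0.15; -0.67 to 0.057), an unadjusted p of 0.0867 and a limma adjusted p of 0.902. The type I TARP share of gamma signal was 65.1% and 67.5% in WT-WD and 62.7% and 66.7% in KO-WD and overlapped between genotypes.

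Cacng5, a type II TARP gene whose hippocampal expression is known to be concentrated in area CA2 of the mouse, was at 32.9 and 38.3 units in WT-WD and 75.4 and 47.7 units in KO-WD. Both KO-WD libraries were above both WT-WD libraries, KO-WD replicate 1 by far the most. The log2 difference was 0.74 (SE 0.24; 0.17 to 1.31), 1.67-fold higher, with an unadjusted p of 0.0179 and a limma adjusted p of 0.886. Leaving out KO-WD replicate 1 gave 0.42, and leaving out the second KO-WD library gave 1.07, with a limma adjusted p of 0.120. Its 2 transcripts have the same coding sequence and divided the signal very unevenly between libraries, NM_001199301 holding 36.3% and 88.2% in WT-WD and 75.8% and 86.8% in KO-WD. Of 6 other CA2 markers, a list chosen after values were seen and not tested as a list, 5 were higher in KO-WD, with a median log2 difference of 0.23 and sums of 655 and 632 units in WT-WD and 759 and 680 units in KO-WD. KO-WD replicate 1 also had the highest summed signal of choroid plexus markers, 7306 units, and the part of either marker list in the Cacng5 value was not tested. Ntf3 was at 13.6 and 11.8 units in WT-WD and 24 and 16.1 units in KO-WD and Rgs14 at 213 and 229.9 units in WT-WD and 256 and 259 units in KO-WD. Pcp4, the marker of this list that was lower, was at 133 and 130 units in WT-WD and 133 and 102 units in KO-WD. Its libraries overlapped between the genotypes. Cacng6 lay between 0.231 and 2.81 units and Cacng1 between 0.222 and 1.03 units, both genes of muscle calcium channels, and each was at or under the floor in 1 library.

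Per 1000 bases of longest transcript, Cacng8 at 132 ± 5.5 and Cacng7 at 86.2 ± 9.17 did not overlap. Per coding length their order was reversed, with Cacng7 at 231 ± 24.6 and Cacng8 at 197 ± 8.22. The auxiliary share of calcium channel signal, with alpha2delta, beta and gamma genes counted as auxiliary, was 53.3% and 53.3% in WT-WD and 52.2% and 46.2% in KO-WD. Like the sodium share, the calcium share depends on transcript length, and it is given here only for the deposited signal. The difference of -4.13 percentage points had an exact two-sided permutation p of 0.333, the smallest possible, and without KO-WD replicate 2 it was -1.12 points. The beta genes contributed 27.6% and 27.5% in WT-WD and 26.9% and 24.1% in KO-WD, the gamma genes 14% and 14% in WT-WD and 13.6% and 12.1% in KO-WD and the alpha2delta genes 11.6% and 11.8% in WT-WD and 11.6% and 9.9% in KO-WD. In each of these shares KO-WD replicate 2 was the lowest library. Because most gamma proteins serve AMPA receptors, the share was also computed without the gamma genes, an alternative chosen after seeing the data, and the difference was -3.99 points.

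Among HCN genes, Hcn2, a broadly expressed gene of the family, was at 319 and 292 units in WT-WD and 291 and 282 units in KO-WD (-0.092; -0.34 to 0.16), with both KO-WD libraries below both WT-WD libraries by a small margin. Hcn3 was at 19.2 and 23.6 units in WT-WD and 19.7 and 20.2 units in KO-WD (-0.09; -0.60 to 0.42) and overlapped. Hcn4, the pacemaker gene of the sinoatrial node, was low, at 8.02 and 9.42 units in WT-WD and 10.5 and 10.7 units in KO-WD (0.26; -0.37 to 0.89), with both KO-WD libraries above both WT-WD libraries. The auxiliary subunit gene Pex5l, which encodes the trafficking protein of HCN channels, was at 988 and 925 units in WT-WD and 882 and 865 units in KO-WD, lower in both KO-WD libraries, and was named after its value was seen.

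As shares of HCN signal, Hcn3 made up 3.97% and 5.06% in WT-WD and 4.58% and 4.62% in KO-WD, and Hcn4 1.65% and 2.02% in WT-WD and 2.44% and 2.45% in KO-WD. The Hcn4 share differed by 0.606 points, with an exact two-sided permutation p of 0.333, the smallest possible, and the Hcn3 share overlapped between genotypes. Levels per 1000 bases of transcript were 92.7 ± 5.0 for Hcn2, 5.17 ± 0.49 for Hcn3 and 1.58 ± 0.202 for Hcn4, with no overlap between them, and their order was the same per coding length.

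A list of 35 genes whose products anchor, modulate or work beside these channels was examined with the members. None passed the threshold (limma), 13 were higher and 22 lower in KO-WD, and the median log2 difference was -0.041. Both KO-WD libraries were above both WT-WD libraries for 6 and below for 7, together 37.1% of the list against 36.3% of all genes, a share near the background. Fgf12, which encodes a protein binding the cytoplasmic tail of sodium channel pores, was at 215 and 226 units in WT-WD and 176 and 167 units in KO-WD, a log2 difference of -0.36 with an unadjusted p of 0.0130. Unc79, part of the sodium leak channel complex, was at 197 and 208 units in WT-WD and 232 and 273 units in KO-WD (0.31). Stac2, an adaptor of L-type channels, was at 236 and 243 units in WT-WD and 191 and 208 units in KO-WD (-0.27), and Nedd4l, a ubiquitin ligase that acts on sodium channels, at 327 and 298 units in WT-WD and 348 and 413 units in KO-WD (0.28). These 4 genes were named for the smallest unadjusted p of the list, a choice that favours genes whose libraries do not overlap. The libraries of the genotypes did not overlap for any of them.

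Markers of cell types moved beside the members as follows, with no gene of any list passing the threshold. Of 12 pyramidal and granule neuron markers, 10 were higher in KO-WD, with a median log2 difference of 0.14, among them Dsp, a dentate granule cell gene, at 114 and 104 units in WT-WD and 133 and 166 units in KO-WD and Spink8, a gene of area CA1, at 20.9 and 15.2 units in WT-WD and 23.7 and 27.5 units in KO-WD. Of 10 interneuron markers 6 were lower and 4 higher, with a median of -0.090. Among the lower were Vip at 43.5 and 40 units in WT-WD and 34.5 and 22.4 units in KO-WD and Reln at 186 and 176 units in WT-WD and 139.6 and 172 units in KO-WD. Gad1, Gad2 and Slc32a1 overlapped between the genotypes, with log2 differences of -0.058, 0.049 and 0.087. Of 8 oligodendrocyte precursor markers 6 were lower (median -0.29), among them Olig1 at 227 and 225 units in WT-WD and 168 and 165 units in KO-WD and Olig2 at 73.9 and 87.5 units in WT-WD and 63.8 and 55 units in KO-WD. Gpr17 and Vcan were higher, with log2 differences of 0.37 and 0.21, and Cspg4 was at -0.032. The libraries of the genotypes overlapped for Gpr17, Vcan and Cspg4. Oligodendrocyte precursors are known to carry sodium and calcium channels, and their part in the member values was not tested. Astrocyte markers were lower in 7 of 8 (median -0.093), with Aqp4 at 298 and 295 units in WT-WD and 211 and 189 units in KO-WD and Gfap at 927 and 1079 units in WT-WD and 756 and 758 units in KO-WD. Microglia markers were lower in 7 of 8 (median -0.22), with Fcrls at 35.6 and 34.2 units in WT-WD and 18.4 and 18.5 units in KO-WD and P2ry12 at 54.9 and 56.2 units in WT-WD and 47.6 and 44.2 units in KO-WD. Vascular markers were lower in 7 of 8 (median -0.46), with Myh11 at 60.9 and 69.5 units in WT-WD and 49.7 and 38.4 units in KO-WD and Pecam1 at 64.6 and 74.6 units in WT-WD and 53.7 and 40.8 units in KO-WD. In the lists named earlier, F5 of the choroid plexus was at 65.8 and 51.8 units in WT-WD and 173 and 133 units in KO-WD and Otx2 at 16.6 and 14 units in WT-WD and 51.2 and 31.4 units in KO-WD, and Mag of oligodendrocytes was at 625 and 573 units in WT-WD and 439.6 and 438 units in KO-WD and Ermn at 70 and 95 units in WT-WD and 52.9 and 51.4 units in KO-WD. Thalamus and habenula markers were higher in 4 of 8 (median -0.0031), with Slc17a6 at 43.7 and 45.2 units in WT-WD and 34.9 and 21.8 units in KO-WD and Tcf7l2 at 2.73 and 4.24 units in WT-WD and 6.16 and 5.88 units in KO-WD. Striatum markers were higher in 6 of 8 (median 0.24), with Penk at 78 and 77 units in WT-WD and 117 and 87.8 units in KO-WD and Pde10a at 210.4 and 195 units in WT-WD and 236 and 241 units in KO-WD. No marker in these lists was at 0 in any library.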

How the data were processed

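Hippocampal total RNA was sequenced in 4 libraries, 2 per genotype. Per the labels' protocols, an Ion Total RNA-Seq kit was used. STAR, Partek and build mm39 stand in the submitters' processing notes. The sources used here give no versions, annotation, quantification model, normalization method or use of strand. The authors deposited a normalized signal for each of 30108 RefSeq transcripts in every library. Each library totals 2992340 to 2994490 units. A constant of 0.0001, which appears to have been added to all values, was subtracted. Transcripts were matched to symbols of a RefSeq gene table of GRCm38.p6 (30073 matched, 35 not) and summed to 16148 genes. Lengths and sequences came from GENCODE annotation and genome of GRCm38, with 88 of the 100 member transcripts linked. No value of another sample was present.

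The low values pile up at steps that give what 1 read is worth, but 16.2% to 22.2% of low values were whole within 0.02 reads, so no count model was used. Genes reaching 1 unit in at least 2 libraries were tested on log2(signal + 1) with limma 3.58.1 in R 4.3.3, with trend and robust variance moderation, on the 4 libraries and genotype alone. Benjamini-Hochberg adjustment ran over all 15707 genes, with a threshold of 0.05. Folds and intervals come from this fit, and fold changes of low genes are understated by the added 1. Shares were compared by an exact two-sided permutation test. The limma step was tested on simulated data first. Alternatives were other scalings, filters and added constants, plain limma, a replicate block, coding transcripts alone, levels per length, removal of the length trend in each library, and leaving out each library. Replicate numbers are shared by the genotypes, and the deviations of same-numbered libraries correlated at 0.038 across 15707 genes, so the numbers were not taken as pairs.

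The members and lists were chosen with earlier results of these data known. Members averaging at least 10 units are given in every library, others by range, with the 6 members of smallest unadjusted p, 2 to 4 genes of each list by unadjusted p, and Tas1r3. Single transcripts, further library-left-out values and the CA2 list were named after their values were seen. So were Camk2a, Ttr, Gad1, Gad2 and Slc32a1. Some members, markers and sequences are counted in the totals but not reported by name here. No amino acid sequence was used here.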

Additional observations from a re-analysis of the deposited data

How the results depend on the processing

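No member passed the threshold by limma under any of 14 alternatives, where the smallest adjusted p of a member ran from 0.120 to 0.895. Over all genes 10 were called, against 0 by plain limma, 1 with coding transcripts alone, 7 with the length trend removed, and 18 to 93 with a library left out. With a replicate block 47 were called and 0 members, and the block changed no member's direction. The sign of a member's difference changed in 26 of 543 comparisons, 25 of them with a library left out, over 18 members, mostly by less than its standard error. It moved further for 10, for which leaving out each library gave log2 differences of -0.089 to 0.58 for Cacna1c, -0.19 to 0.57 for Cacna1d, -0.19 to 0.54 for Cacna1e, -5.9e-05 to 0.28 for Scn8a, -0.18 to 0.15 for Cacna1i, -0.23 to 0.091 for Cacnb2, -0.22 to 0.11 for Scn1a, -0.26 to 0.25 for Scn3a, -0.31 to 0.39 for Cacna2d2 and -0.33 to 0.12 for Scn4b; fewer libraries entered these fits, in which the lone library is assumed to vary like the others. Of the members whose libraries did not overlap, those ranges were -0.30 to -0.051 for Cacng7, -0.24 to -0.098 for Cacng2, -0.19 to -0.088 for Cacng3, 0.031 to 0.084 for Cacnb3, -0.15 to -0.029 for Hcn2 and 0.15 to 0.36 for Hcn4. The difference in the Hcn4 share was 0.606 points as deposited and 0.383 per longest transcript, where the weights are the lengths, and that in the Hcn3 share turned from 0.0838 to -0.0168. Without a library, the sodium auxiliary difference ran from -4.76 to -0.629 points and the calcium one from -7.13 to -1.12 points, closest to 0 without KO-WD replicate 2. Depth limits Scn4a, Cacng1 and Cacng6, which reached the floor of 3 reads.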

Other observations

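Several channel genes divided their signal among transcripts in ways that differed between libraries. In some the division differed within a genotype, and in others both KO-WD libraries lay on the same side of both WT-WD libraries. No single transcript passed the adjusted threshold, and these examples were named after their values were seen. The values rest on how the authors' method assigned reads among transcripts. For Cacna1d, transcript NM_001302637 held 26.8% and 38.4% in WT-WD and 26% and 67.1% in KO-WD of the gene's signal, and NM_028981 held 26% and 26.5% in WT-WD and 51.6% and 7.29% in KO-WD. For Cacna2d2, transcript NM_001174047 was at 7.69 and 7.9 units in WT-WD and 18.2 and 31.2 units in KO-WD, a log2 difference of 1.5 with a limma adjusted p of 0.816, and NM_001174049 was at 51.4 and 31.6 units in WT-WD and 24.5 and 14 units in KO-WD, while the sum over the gene overlapped between genotypes. In Cacnb1, NM_001282977 was at 50.3 and 34.3 units in WT-WD and 125 and 74.6 units in KO-WD, a log2 difference of 1.2 with a limma adjusted p of 0.837, and NM_145121 was at 203 and 213 units in WT-WD and 149 and 213 units in KO-WD.

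Scn1a has a form with an additional segment of 33 coding bases on chromosome 2. The transcript with it held 34.7% and 49.7% in WT-WD and 50.7% and 49.7% in KO-WD of Scn1a signal. WT-WD replicate 1 stood apart, and the other 3 libraries lay between 49.7% and 50.7%. The most finely divided member was Cacna1c, with 11 transcripts, of which 3 (NM_001159533, NM_001159534 and NM_001159535) held the largest shares, and NM_001159534 was at 21.4% and 28.1% in WT-WD and 25.7% and 25.5% in KO-WD.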
